A study of Rattus norvegicus with 8 samples.

Results

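Glycolytic enzyme transcripts are described here in the axonal and the somatic compartment of rat hippocampal neuron cultures. Summed astrocyte markers were 3.17 times the summed neuron markers in the axonal means and 2.60 times in the somatic ones. The transcripts are therefore not assigned to a cell type. The list names 10 enzymes: Aldoa, Aldoc, Pkm, Gapdh, Eno1, Eno2, Pgk1, Ldha, Ldhb and Tpi1. The deposited tables pair 7 of them with their own symbol, each at 1 Ensembl identifier. The other 3 were found through their Entrez identifier at 5 identifiers, because the tables name these rows LOC685186 (Gapdh), LOC100911625 and no symbol (Eno2), and LOC500959 and no symbol (Tpi1). The 12 identifiers stand among 26405 in each table. Reads may be divided between the paired identifiers of Eno2 and of Tpi1, so their values are uncertain and are given separately.

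Neurons from rat embryos had been kept for 10 to 14 days in microfluidic chambers, where axons grow into a compartment of their own. For 24 h the axons alone received soluble oligomers of Abeta(1-42), a peptide that accumulates in Alzheimer disease, or vehicle. The 4 groups are axons with Abeta, axons with vehicle, soma with Abeta and soma with vehicle, with 2 samples each, and the soma samples also hold neurites. Nothing in the labels says that duplicates were separate cultures, and the p-values reflect only how far these samples spread, perhaps for technical reasons. The files hold the authors' comparison of the treatments in each compartment, with the numerator of the ratio left unnamed. A transcript with a log2 fold change above 0 in the authors' tables is called higher on the positive side, and one below 0 higher on the negative side. Neither side can be named as Abeta or vehicle.

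Glycolysis converts glucose to pyruvate in the cytosol and yields ATP without oxygen. Aldolase splits the sugar bisphosphate, and Tpi1 interconverts the resulting triose phosphates. Gapdh, Pgk1, enolase and Pkm then carry the trioses to pyruvate, and lactate dehydrogenase interconverts pyruvate and lactate. Several steps have isoforms that differ between brain cells: Eno2 is the neuronal enolase, Aldoc is the aldolase of astrocytes and some neurons, and Aldoa, Eno1, Ldha and Ldhb are found in many tissues. In axons, glycolytic ATP is known to help drive vesicle transport, and astrocytes are known for active glycolysis and lactate release.

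Reads of single libraries were recovered from the deposited means, as described in the methods, and are given as normalized counts (reads divided by the size factor of the library). The recovered libraries match no sample title, so they are called positive-side library 1 and 2 and negative-side library 1 and 2 and enter no test between treatments. The axonal size factors were 1.32 and 1.28 (positive side) and 0.952 and 0.740 (negative side). In soma each side held a deep library (2.97 and 3.74) and a shallow library (0.297 and 0.320). The 12 identifiers together made up 0.468% and 0.521% of the positive-side axonal reads that were recovered and 0.189% and 0.289% of those on the negative side. The 2683 genes whose somatic mean reached 100 normalized counts, called soma-expressed genes below, had axonal log2 fold changes with a median of 0.44, against -0.13 for all genes with reads. All 12 identifiers belong to that group of genes.

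To show the regulatory sequence of members at either end of the axonal differences, the 250 bases before the annotated start are printed for Aldoc and Pkm, the members with the highest axonal fold changes, and for Ldha, the member with the lowest. They come from RefSeq (build GRCr8), run 5′ to 3′ on the gene's own strand, and carry in capitals each match to ACGTG on either strand. ACGTG is a form of the core recognised by hypoxia-inducible factors, which are known activators of glycolytic genes. Other forms of this core were not searched and are not marked. The windows are chr10:63715294-63715543 (Aldoc), chr8:68953385-68953634 (Pkm) and chr1:106507842-106508091 (Ldha), all on the plus strand.
Aldoc: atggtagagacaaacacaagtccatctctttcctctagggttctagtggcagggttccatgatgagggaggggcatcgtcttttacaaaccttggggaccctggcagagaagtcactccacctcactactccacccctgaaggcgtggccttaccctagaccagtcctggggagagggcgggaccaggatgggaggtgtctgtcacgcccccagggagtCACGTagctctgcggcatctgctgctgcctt
Pkm: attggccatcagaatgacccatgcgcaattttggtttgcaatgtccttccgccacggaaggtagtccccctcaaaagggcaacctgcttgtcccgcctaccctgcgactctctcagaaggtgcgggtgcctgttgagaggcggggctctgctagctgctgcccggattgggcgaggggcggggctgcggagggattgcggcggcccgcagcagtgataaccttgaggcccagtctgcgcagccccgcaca
Ldha: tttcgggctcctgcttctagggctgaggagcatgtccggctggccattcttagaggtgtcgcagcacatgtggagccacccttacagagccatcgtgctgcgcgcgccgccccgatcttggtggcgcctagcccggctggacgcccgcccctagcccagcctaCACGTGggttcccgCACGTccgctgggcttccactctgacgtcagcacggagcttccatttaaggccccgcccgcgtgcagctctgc
The Ldha window held 3 matches, of which 2 overlap on opposite strands of a single CACGTG, the Aldoc window held 1 and the Pkm window held 0. RefSeq windows were at hand for 9 of the 10 enzymes, all but Pgk1, with several starts for Aldoa and Eno1. Among their 12 windows 5 held a match, in Aldoa, Aldoc, Gapdh, Eno2 and Ldha, against 16.6% of all 33469 windows of this length. The share of G and C bases was 54.4% to 69.6% in the 12 windows, against a median of 51.2% over all windows. The part of base composition in the matches was not tested. A match is a description of the letters and shows no binding.

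In the axonal comparison, all 12 identifiers had deposited log2 fold changes above 0, and 3 passed the authors' adjusted p under 0.05: Aldoc, Pkm and Aldoa, all higher on the positive side. Only 8 of the 12 have an adjusted p, because the authors' table gives one only to genes with a mean of at least 44.8. Over all 1321 genes with an adjusted p, 8.78% were called on the positive side, 14.2% were called on the negative side, and the positive-side share was 8.46% among soma-expressed genes. The median over the 12 identifiers was 0.75, and their range was 0.31 to 1.99. Fold changes above 0 were common, at 57.7% of all genes averaging 10 or more and 76.6% of soma-expressed genes.

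Aldoc, the aldolase typical of astrocytes (ENSRNOG00000011452), had 169 and 166 normalized counts in axons on the positive side, against 21.0 and 55.4 on the negative side. The sides did not overlap, and the negative-side libraries differed 2.64-fold from each other, more than any other member but Eno1. In the authors' deposited table its log2 fold change was 1.99 (SE 0.54, adjusted p = 0.00545), or 3.98-fold. Most astrocyte markers moved with it: of the 18 found, 14 had a log2 fold change above 0. Of the 12 with an adjusted p, 8 were called on the positive side and none on the negative side. Slc1a2 (-0.82), Slc4a4 (-0.77), Apoe (-0.11) and Fabp7 (-0.02) lay below 0. Summed, the 18 markers reached 4680 and 4900 normalized counts on the positive side, against 945 and 2142 on the negative side. Gfap gave 1228 and 1530 of these against 158 and 375, and Vim 1286 and 1264 against 225 and 192. The part of the astrocyte markers in the Aldoc result was not tested. In bulk RNA, a larger number of such cells and more of the RNA in each cannot be told apart.

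Pkm, the pyruvate kinase of brain and other tissues (ENSRNOG00000011329), had 237 and 274 normalized counts on the positive side, against 79.8 and 81.0 on the negative side. Both negative-side libraries were low and near each other, in contrast to Aldoc. Its log2 fold change in the authors' deposited table was 1.59 (SE 0.44, adjusted p = 0.00624), or 3.02-fold. Aldoa, the aldolase of most tissues (ENSRNOG00000023647), had 184 and 200 normalized counts on the positive side, against 44.1 and 90.5 on the negative side. The authors' deposited table gives it 1.43 (SE 0.50, adjusted p = 0.0215), or 2.69-fold. These calls depend on the genes entered. When p was adjusted over the 8032 genes averaging 10 or more (Benjamini-Hochberg on the deposited p), Aldoc (adjusted p = 0.0286) and Pkm (0.0330) passed and Aldoa (0.111) did not, and adjusted over every gene with reads none of the 3 passed (0.0851, 0.0982 and 0.302).

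The members nearest to the threshold were Eno1 and Pgk1. Eno1, the general enolase (ENSRNOG00000017895), had 186 and 208 normalized counts on the positive side, against 45.2 and 120 on the negative side, so the second negative-side library lay between the others. Its log2 fold change of 1.18 in the authors' deposited table (SE 0.52, adjusted p = 0.0845) was not called. Pgk1, the first ATP-yielding kinase of the pathway (ENSRNOG00000002467), had 56.7 and 61.0 against 16.8 and 24.3 normalized counts. At a mean of 39.7 it has no adjusted p, and the authors' deposited table gives 1.37 (SE 0.63) with an unadjusted p of 0.0301.

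Gapdh, which makes the first NADH of glycolysis (ENSRNOG00000018630), had 354 and 466 normalized counts on the positive side, against 163 and 289 on the negative side. In the authors' deposited table it stood at 0.83 (SE 0.43, adjusted p = 0.177) and was not called. Tpi1, the triose phosphate isomerase, had 69.5 and 66.5 against 31.5 and 51.3 normalized counts at its first identifier (ENSRNOG00000015290) and 37.8 and 36.8 against 21.0 and 31.1 at its second (ENSRNOG00000050669). The log2 fold changes were 0.66 (SE 0.58, adjusted p = 0.457) and 0.47 (SE 0.67, no adjusted p) in the authors' deposited table. Both sets of sides kept apart, but by less than 1 SE in the second.

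Eno2, the neuronal enolase, had 57.4 and 79.0 normalized counts on the positive side, against 48.3 and 40.5 on the negative side at ENSRNOG00000013141. Its second identifier, ENSRNOG00000048365, had 28.7 and 42.3 against 25.2 and 27.0, so the lower positive-side library lay close to the negative-side ones. The authors' deposited table gives 0.57 (SE 0.57, adjusted p = 0.530) for the first and 0.39 (SE 0.67, no adjusted p) for the second. The 95% interval of the first, -0.54 to 1.68, takes in both no difference and one of the size of Pkm.

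Lactate dehydrogenase holds the lowest axonal fold change of the 12 identifiers. Ldha, the subunit typical of glycolytic tissue (ENSRNOG00000013009), had 60.5 and 75.1 normalized counts against 58.8 and 48.6. Ldhb, the subunit typical of heart and other oxidative tissue (ENSRNOG00000013000), had 49.1 and 41.5 against 24.2 and 39.2. In the authors' deposited table Ldha stood at 0.31 (SE 0.55, adjusted p = 0.728) and Ldhb at 0.47 (SE 0.64, no adjusted p). For Ldha the lowest positive-side and the highest negative-side library were 60.5 and 58.8, so the sides barely parted, and its 95% interval was -0.77 to 1.39.

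**Figure D1:**
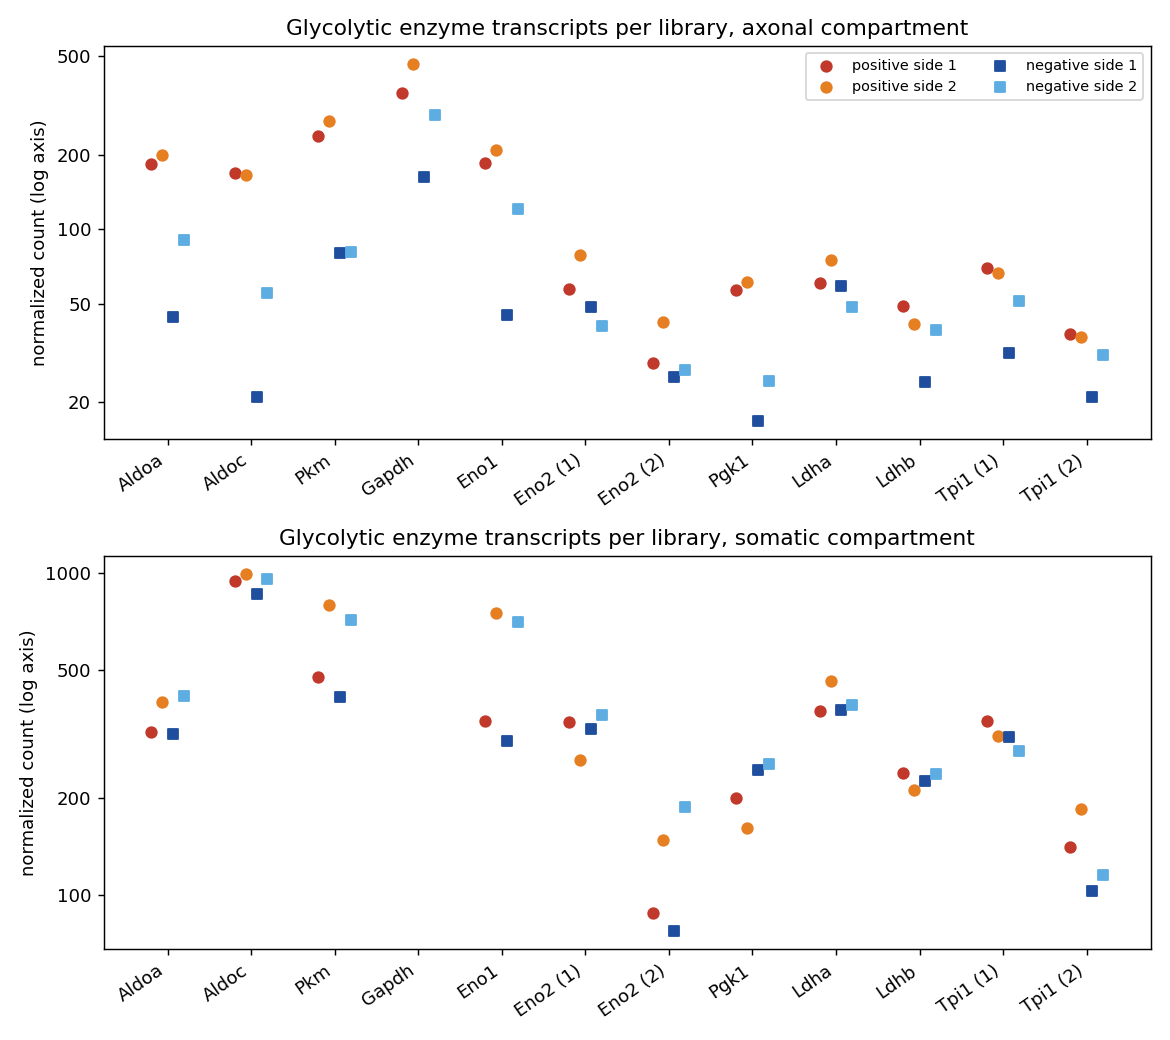
Normalized counts (log axis) of the 12 identifiers in the 4 axonal libraries (upper panel) and the 4 somatic libraries (lower panel), with positive-side libraries as circles and negative-side ones as squares. In axons the circles of Aldoc (169 and 166) and Pkm (237 and 274) lie well above the squares, while in soma the Eno1 values of the deep and shallow libraries lie apart and Gapdh, with a mean above 1000, was not recovered.

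In all 12 identifiers both positive-side axonal libraries were above both negative-side ones. Such a separation in this direction was seen in 30.7% of all genes averaging 10 or more and in 47.9% of soma-expressed genes, and the opposite one in 18.9% and 6.05%. The deposited fold change was closer to 0 than the ratio of the recovered side means in all 12, with the same sign. After subtracting the median of 0.44 of the latter genes, Ldha (-0.13) and the second Eno2 identifier (-0.04) changed sign. In that setting Aldoc (adjusted p = 0.0202) and Pkm (0.0400) stayed past the threshold and Aldoa (0.168) did not. When each library was scaled by its reads in genes whose somatic mean reached 10, the sides had a log2 ratio of 1.90 for Aldoc, 1.41 for Pkm, 1.27 for Aldoa and Pgk1 and 0.07 for Ldha.

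Against genes with a like somatic level, the members fell into separate ranges. Of 146 genes with a somatic mean of 500 to 1000, the range between the quartiles of the axonal log2 fold change was 0.27 to 0.98, and Aldoc, Pkm and Eno1 lay above it. The 819 genes with a somatic mean of 200 to 500 had a range of 0.03 to 0.90, and Aldoa and Pgk1 lay above it, while Ldha, Ldhb and the first identifiers of Eno2 and Tpi1 lay inside. The second identifiers of Eno2 and Tpi1 lay inside the range of the 1600 genes with a somatic mean of 100 to 200 (0.01 to 0.78).

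No member was called in soma. The log2 fold changes ranged from -0.37 (Pgk1) to 0.46 (second Tpi1 identifier) in the authors' deposited table, with a median of 0.07 and 7 of 12 above 0 (44.2% of all genes averaging 10 or more and 36.7% of soma-expressed genes were above 0), and the smallest unadjusted p was 0.331. Over all 18995 genes with reads 0% were called on either side (DESeq2), with 2 genes at an unadjusted p under 0.05. That is far below the share of 0.05 given by a well-matched test when nothing differs. The somatic test was thus very conservative, and the lack of somatic calls does not show that nothing changed. Aldoc had 943 and 993 normalized counts on the somatic positive side, against 858 and 957 on the negative side, and a deposited log2 fold change of 0.08 (SE 0.43). The sides overlapped, and the 95% interval of -0.77 to 0.93 leaves out the value deposited for axons, which has a wide interval of its own (0.93 to 3.06). At 11 identifiers in soma the deposited fold change was closer to 0 than the ratio of the recovered side means. Whether the compartments differ is given by the test described below. Pkm had 477 and 798 against 412 and 713, Aldoa 320 and 397 against 317 and 416, and Ldha 374 and 461 against 376 and 391 normalized counts.

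Pgk1 was the only member lower on the positive side in every somatic library (200 and 162 against 244 and 256 normalized counts), at a deposited -0.37 (SE 0.46). Both Tpi1 identifiers were higher on that side without overlap (347 and 313 against 309 and 282, and 141 and 185 against 103 and 116). Of all genes averaging 10 or more in soma, 8.27% separated like Pgk1 and 7.42% like Tpi1, and of soma-expressed genes 7.89% and 4.61%. Some members differed more between the deep and the shallow libraries than between the sides. Eno1 had 349 and 301 normalized counts in the deep libraries and 751 and 707 in the shallow ones, a 2.15-fold and 2.35-fold difference within a side. Pkm differed 1.67-fold and 1.73-fold in the same way, whereas Aldoc differed 1.05-fold and 1.11-fold. These libraries also differed in markers such as Sox9 (3.70 and 2.40 normalized counts in the deep and 53.9 and 65.7 in the shallow ones), and what sets them apart was not tested. Within the deep and within the shallow pair, the log2 ratio of the sides was 0.13 and 0.054 for Aldoc, 0.21 and 0.16 for Pkm, 0.21 and 0.087 for Eno1 and -0.29 and -0.67 for Pgk1. The first Tpi1 identifier had 0.17 and 0.15 and the second 0.46 and 0.68, whereas Aldoa, Eno2, Ldha and Ldhb differed in sign between the pairs. For Gapdh, whose somatic mean of 1405 was too high for its reads to be recovered, the authors' deposited table gives 0.07 (SE 0.45).

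**Figure D2:**
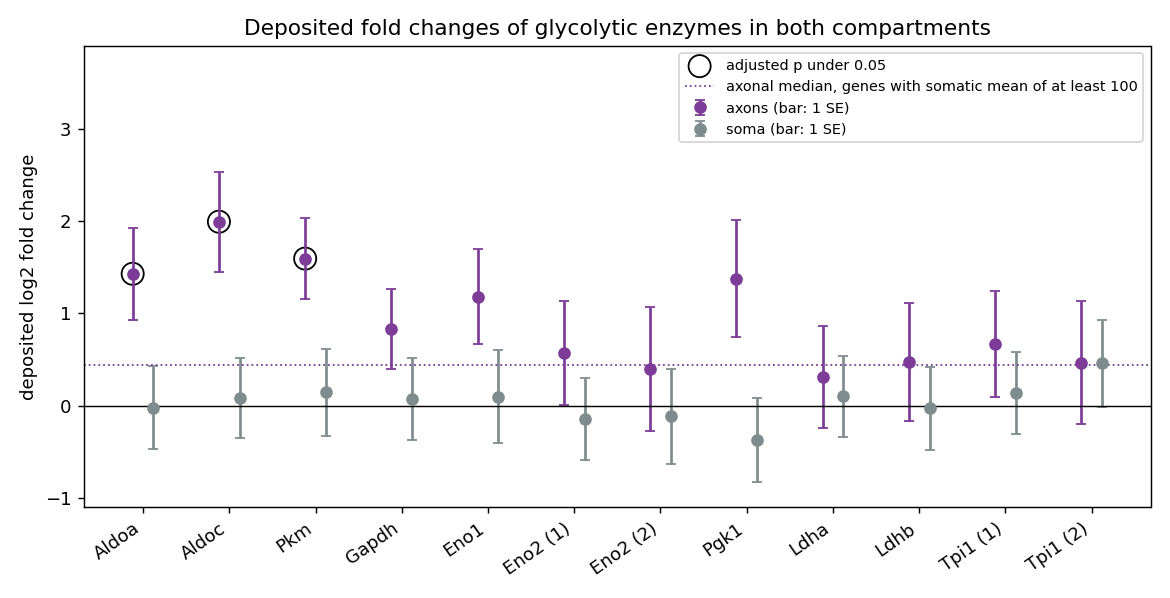
Deposited log2 fold changes of the 12 identifiers in axons (purple) and soma (grey) with bars of 1 SE, with rings around the 3 axonal calls and a dotted line at the axonal median of 0.44 of soma-expressed genes. Axonal values run from 0.31 to 1.99, and somatic values from -0.37 to 0.46.

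The difference between the compartments was tested as the axonal minus the somatic log2 fold change of each gene. Both estimates were taken as independent, and each is drawn toward 0 to a degree that may differ between compartments. None of the 12 identifiers passed (adjusted p = 1.00 for each, Benjamini-Hochberg over 18406 genes, of which 0.0326% passed), and 4 had an unadjusted p under 0.05. Aldoc had the largest difference, 1.92 (SE 0.69, unadjusted p = 0.00575), followed by Pgk1 at 1.75 (SE 0.78), Aldoa at 1.45 (SE 0.67) and Pkm at 1.45 (SE 0.65). A call in axons and none in soma is thus not shown to be a difference between compartments for any of them.

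Isoforms were compared by the share of reads each takes within a library, which does not depend on the size factor. Shares are not corrected for transcript length and are used only to compare libraries, with 95% exact Clopper-Pearson intervals that cover counting error only. Aldoc took 47.9% and 45.4% of Aldoa plus Aldoc reads in axons on the positive side, against 32.3% and 38.0% on the negative side. The sides did not overlap. Summed by side the shares were 46.6% of 933 reads (interval 43.4% to 49.9%) and 35.9% of 170 reads (28.7% to 43.6%), and these intervals just met. The deposited log2 fold changes of Aldoc and Aldoa differed by 0.56 (SE 0.74 if their errors are independent), less than 1 SE.

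Eno2 took 31.7% and 36.8% of Eno1 plus Eno2 reads in axons on the positive side, against 61.9% and 36.0% on the negative side, with both Eno2 identifiers counted. The sides overlapped, and the side difference of -13.2 percentage points became -1.53 without negative-side library 1, whose share was based on 113 reads. In soma Eno2 took 55.3% and 57.4% in the deep libraries and 35.4% and 43.8% in the shallow ones, so its share was lower in both shallow libraries. Within each pair it was lower on the positive side, with a positive minus negative difference of -2.09 percentage points in the deep and -8.42 in the shallow pair. Ldhb took 44.8% and 35.6% of Ldha plus Ldhb reads on the axonal positive side, against 29.1% and 44.6% on the negative side, and the sides overlapped. In soma it took 31.5% to 39.0%.

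The aldolase share differed between the compartments in every library. Aldoc took 40.9% ± 7.12 (SD, n = 4) of aldolase reads in axons and 72.2% ± 2.12 (SD, n = 4) in soma, and the highest axonal library (47.9%) was below the lowest somatic one (69.7%). An exact two-sided permutation test over the 4 and 4 libraries gave p = 0.0286, the smallest that it can give, and 0.0857 adjusted over the 3 isoform pairs. This comparison was chosen after the values were seen, so its p adds no support, and it mixes the treatments within each compartment. It also takes all libraries as independent, and the labels do not say whether axonal and somatic libraries share cultures. The ratio of summed astrocyte to summed neuron markers was 4.74 and 4.33 in the positive-side axonal libraries, 1.5 and 1.72 in the negative-side ones, and 2.60 in soma (from the authors' means over 4 libraries). Apoe alone gave 7967 of the 20465 astrocyte marker counts in the somatic means, against 399 of 3167 in the axonal means. The somatic ratio thus depends strongly on this gene. The part of the marker ratio in the aldolase share was not tested. Eno2 (41.6% ± 13.8 in axons and 48.0% ± 10.3 in soma, n = 4 each) and Ldhb (38.5% ± 7.62 and 36.5% ± 3.38) had overlapping shares, with exact permutation p = 0.486 and 0.629.

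**Figure D3:**
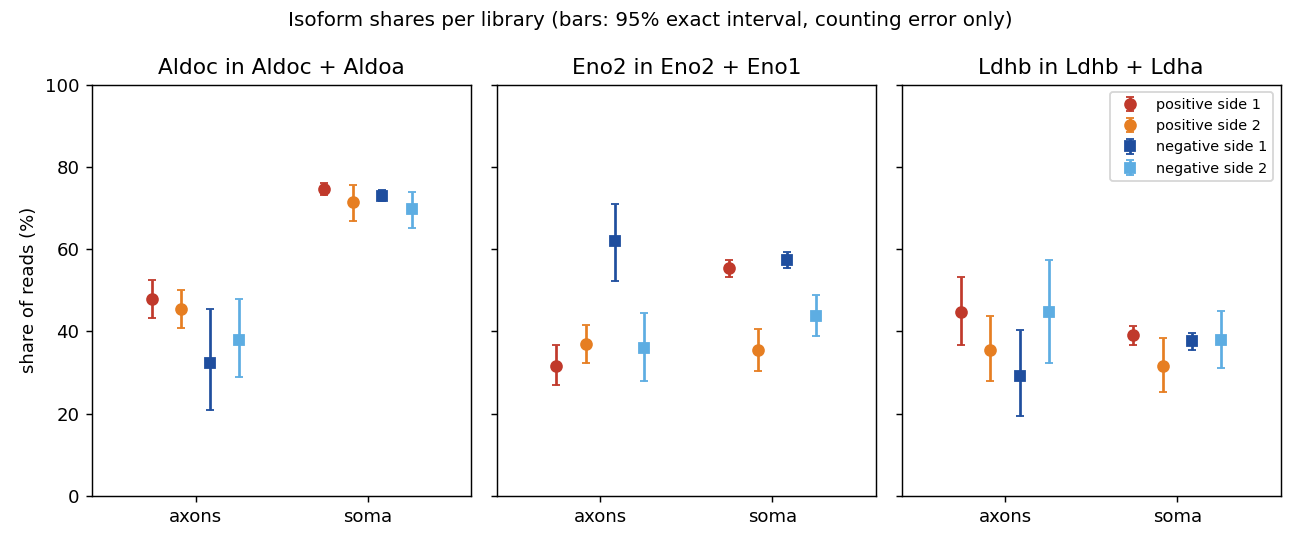
Share of reads (%) of Aldoc, Eno2 and Ldhb within their isoform pair, per library, in axons and soma, with bars of the 95% exact interval. The Aldoc share lies between 32.3% and 47.9% in axons and between 69.7% and 74.6% in soma, while the Eno2 and Ldhb shares of the compartments overlap.

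The make-up of the 10 enzymes, as each one's part of their summed deposited means, also differed between compartments. Aldoc made up 8.77% of the sum in axons and 16.8% in soma, while Aldoa made up 11.1% and 6.50%. Pkm (14.4% and 10.8%) and Eno1 (11.9% and 9.45%) had larger parts in axons, Ldha (5.19% and 7.19%) and Ldhb (3.29% and 4.11%) smaller ones, and Gapdh (27.2% and 25.2%), Eno2 (7.44% and 8.07%) and Tpi1 (7.38% and 8.05%) were near equal. These are the authors' means over 4 libraries, without a spread.

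Since markers of other cells differed between the axonal libraries, the members were also set against them within each library. Neuron markers were found for 15 of 16 genes, 0 of the 9 with an adjusted p were called, and their sums of 988 and 1131 normalized counts on the positive side overlapped those of 630 and 1244 on the negative side. Fibroblast and meningeal markers (7 of 8 found, 4 of the 4 with an adjusted p called on the positive side) summed to 1441 and 2186 against 264 and 271. Sparc alone gave 836 and 1217 of this sum against 127 and 109, while Col3a1 (-0.05), Dcn (-0.57) and Lum (-0.59) lay below 0. Dendritic and postsynaptic markers (5 of 6, 0 called of the 2 with an adjusted p) summed to 274 and 285 against 268 and 293. No microglial, oligodendrocyte, or endothelial and mural marker had an adjusted p, so none could be called. The microglial sums were lower on the positive side without overlap (72.6 and 27.4 against 102 and 165), while Aif1 (1.05) and Trem2 (0.27) of that list lay above 0. The endothelial and mural sums also were (52.2 and 26.6 against 116 and 68.9), with all 7 genes below 0 at low axonal means (1.58 to 20.5). Of single genes averaging 10 or more, 18.9% separated in this direction. All genes with reads had a median log2 fold change of -0.13. Oligodendrocyte markers summed to 86.2 and 84.5 against 83.0 and 39.2. The microglial list had 1 gene at an unadjusted p under 0.05 (DESeq2) and the other uncalled lists had 0. No marker found had an axonal mean of 0. Axonal libraries also held reads in 5473 genes without any in soma, which made up 2.83% and 1.25% of the reads recovered on the positive side and 5.63% and 4.66% of those on the negative side. In soma 0 markers of any list were called, and Cldn5 alone was at 0.

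Relative to the neuron marker sum of the same library, 7 of the 10 enzymes were higher in both positive-side libraries, and the other 3, Eno2, Ldha and Ldhb, overlapped. Scaled in this way, 31.1% of soma-expressed genes were higher in both positive-side libraries and 8.72% lower. Aldoc equalled 17.1% and 14.7% of the neuron sum on the positive side, against 3.33% and 4.45% on the negative side. Relative to the astrocyte marker sum, Aldoc alone was higher in both positive-side libraries (3.60% and 3.39% against 2.22% and 2.59%). Pkm and Pgk1 overlapped, and the other 7 were lower on the positive side. The separation of Aldoc depends on Apoe, which gave 492 and 272 of the astrocyte sum against 140 and 693. Without Apoe in the sum, the Aldoc sides overlap. Of soma-expressed genes 1.41% were higher and 70.1% lower under this scaling, the latter a share near that of the enzymes. Aldoa equalled 3.93% and 4.07% of the astrocyte sum against 4.67% and 4.22%, Eno1 3.97% and 4.25% against 4.78% and 5.61%, and Ldha 1.29% and 1.53% against 6.22% and 2.27%. The part of these cells in the enzymes' differences was not tested.

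**Figure D4:**
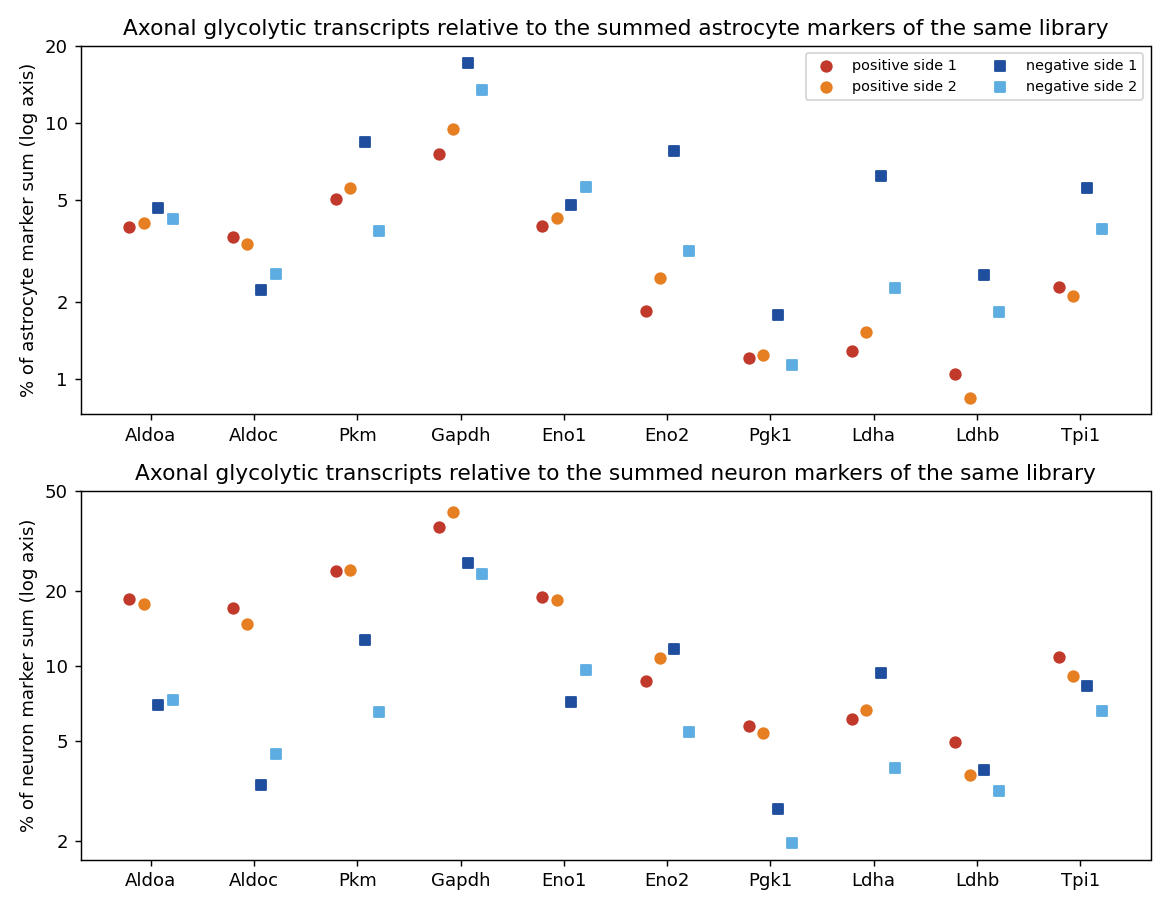
Axonal normalized count of each enzyme as a percentage (log axis) of the summed astrocyte markers (upper panel) and neuron markers (lower panel) of the same library, with paired identifiers summed. Circles (positive side) lie above squares for Aldoc in both panels, while Eno2, Ldha, Ldhb and Tpi1 have circles below squares in the upper panel.

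The rest of the pathway was taken from lists of 63 genes that lead into, regulate or leave glycolysis, of which 57 had axonal reads, at 58 identifiers. In axons 1 of the 6 identifiers with an adjusted p was called, on the positive side: Hif1a, the oxygen-regulated subunit of the hypoxia-inducible factor (8.78% of all genes with an adjusted p were called there). Hif1a had 62.7 and 96.3 normalized counts against 12.6 and 18.9, and the authors' deposited table gives 2.12 (SE 0.63, adjusted p = 0.0116). It did not pass when p was adjusted over all genes averaging 10 or more. The median of the 40 pathway identifiers averaging that much was 0.38, and 31 of them lay above 0, beside 57.7% of all such genes. Of soma-expressed genes 76.6% lay above 0, with a median of 0.44.

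Another 4 pathway genes had an unadjusted p under 0.05 and no adjusted p. Slc16a1, a lactate and pyruvate carrier, had 56.7 and 68.9 normalized counts against 13.7 and 8.10 and stood at 2.23 (SE 0.67) in the authors' deposited table. Pfkfb3, which makes the activator of phosphofructokinase, had 38.5 and 86.1 against 15.8 and 17.6 and stood at 1.69 (SE 0.67). Taldo1, the transaldolase of the pentose phosphate pathway, had 56.7 and 63.4 against 15.8 and 20.3 and stood at 1.57 (SE 0.64). The testis paralog Pgk2 lay on the other side at -2.10 (SE 1.06) on a mean of 3.0 normalized counts, with 0 in both positive-side libraries. Pfkfb3 and Taldo1 were chosen for mention after their values were seen.

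The remaining steps of glycolysis gave no call. Of 18 identifiers of the remaining glycolysis list, 0 were called in axons, 3 of them with an adjusted p, and 1 had an unadjusted p under 0.05 (Pgk2), and the median of the 11 averaging 10 or more was 0.19. In the authors' deposited table Gpi, the phosphoglucose isomerase, stood at 0.69 (SE 0.54, adjusted p = 0.405) and Pgam1, the mutase before enolase, at 0.08 (SE 0.60, adjusted p = 0.933). The phosphofructokinase subunits, which set the committed step, stood at 0.28 (Pfkm), 0.33 (Pfkl) and -0.63 (Pfkp) there. Pfkm had 77.1 and 69.6 normalized counts against 44.1 and 75.6, so its sides overlapped. Pfkp had 22.7 and 28.2 against 23.1 and 60.8, with a single high negative-side library. Pfkl and Pfkp, the glucose transporters Slc2a1 (-0.07, SE 0.78) and Slc2a3 (0.12 and 0.06 at 2 identifiers, SE 0.84 each) and the neuronal monocarboxylate carrier Slc16a7 (-0.46, SE 0.96) could not be called, since the authors' deposited table gives them no adjusted p.

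Of the paralogs that other tissues use, those given here had few reads. Deposited axonal means were 14.0 for Pklr (liver and red cell pyruvate kinase), 9.28 for Eno3 (muscle enolase), 4.22 for Gapdhs (sperm Gapdh), 3.0 for Pgk2 and 0.829 for Ldhc (testis lactate dehydrogenase). Their somatic means were 5.88, 5.61, 3.98, 0 and 0, and none of these has an axonal adjusted p. All 5 pyruvate dehydrogenase genes, which take pyruvate into the mitochondrial cycle, lay above 0 in axons with a median of 0.68, and none had an adjusted p. The NADH shuttle (6 found), pentose phosphate (6) and glycogen (7) lists had medians of 0.63, 0.50 and 0.27 over identifiers averaging 10 or more. They held only 2 identifiers with an adjusted p (Tkt and Pygb), neither called. In soma 0 of 56 pathway identifiers were called (DESeq2, with 0 at an unadjusted p under 0.05), and Hif1a stood at -0.21 and Slc16a1 at -0.10 in the authors' deposited table.

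**Figure D5:**
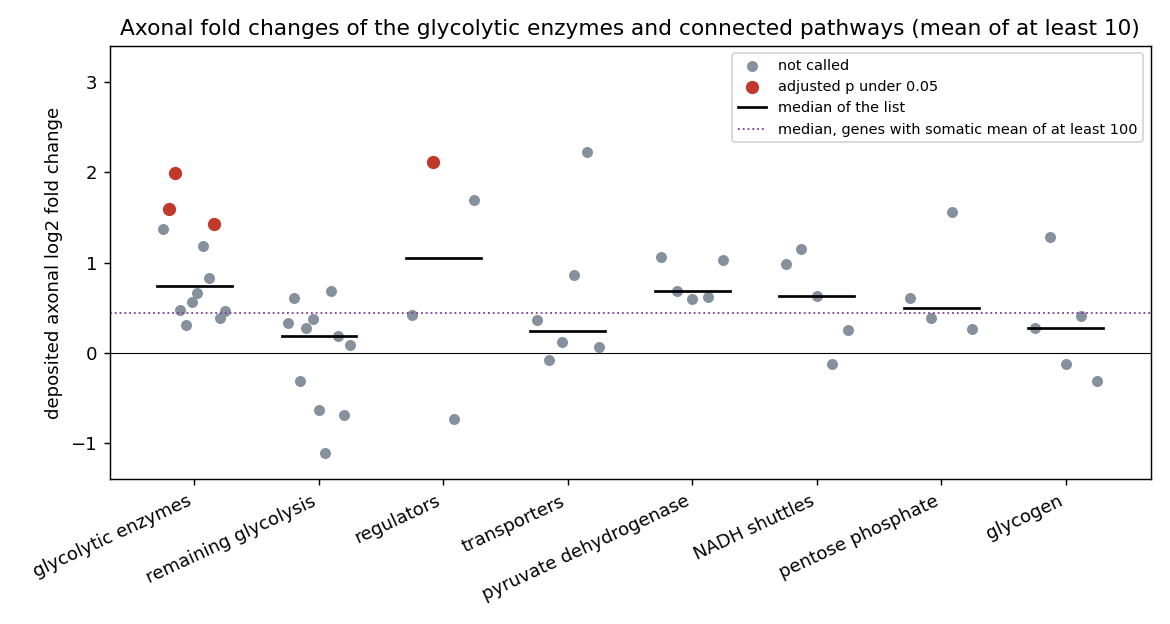
Deposited axonal log2 fold changes of the glycolytic enzymes and of 7 connected lists, for identifiers averaging 10 or more, with red points for adjusted p under 0.05 and a bar at each list's median. The enzymes have 3 calls and a median of 0.75, the regulators have 1 call (Hif1a at 2.12), and the remaining glycolysis list has a median of 0.19.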

How the data were processed

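RNA of 8 samples (4 groups of 2) was sequenced from TruSeq libraries. Trimming and alignment tools named in the submitters' processing notes are TopHat2, Trim Galore and SAMtools, and DESeq2 made the comparison; their versions and the genome build were not given there. Per the file headers, the authors' tables hold a mean normalized count (a signal over 4 libraries), a log2 fold change with its SE, a Wald score, and the deposited p-value and adjusted p-value. They hold no column per library, so the authors' DESeq2 adjusted p under 0.05 is the main test. The difference between compartments was a two-sided normal test with the SEs combined as for independent estimates, Benjamini-Hochberg over 18406 genes.

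Library units were read from means that a single read gives, with the side from the sign of the fold change, and each mean was solved for 4 whole read counts within its last digit. Exactly 1 solution was found for 100% of axonal means under 500 and for 99.9% of somatic means of 100 to 500 and 99.3% of those of 500 to 1000. Shifted decoy values had a solution in 0%, 0.289% and 4.11% of cases, so somatic values of Aldoc, Pkm and Eno1 are less certain. On simulated means 6125 of 6125 (axons) and 6049 of 6050 (soma) were solved correctly. Recovered reads numbered 229815 to 421141 per axonal and 262639 to 3654827 per somatic library. The difference test was also run on simulated data, where it called 166 of 200 genes changed by a log2 of 5, with 9 false calls. The simulated noise was drawn from the deposited SEs, so the simulation cannot show whether those SEs match the spread of the data. Changes as small as those of the enzymes were not simulated, so the power of the test for them is not known.

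Symbols came from the tables or, through the Entrez identifier, from RefSeq (GRCr8). Members and lists were chosen with earlier results of these data known. The rule named all 10 enzymes, paralogs, listed genes that were called or averaged 100 in axons, and Hk1, Gpi, Pfkm, Pfkl, Pfkp, Pgam1, Slc2a1, Slc2a3, Slc16a1 and Slc16a7; 6 of 63 pathway genes, Hk1 among them, matched no row. The values of 1 listed gene are not reported here. Alternatives were other gene sets for the adjustment, centring, a pseudocount of 1, other scaling and each library left out. Python 3.11.15, NumPy 2.4.6, pandas 2.3.3, SciPy 1.17.1, Numba 0.67.0 and Matplotlib 3.10.9 were used.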

Additional observations from a re-analysis of the deposited data

How the results depend on the processing

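Of the 3 axonal calls among the enzymes, 2 passed when p-values were adjusted over genes averaging 10 or more and 2 after centring, and 0 when adjusted over every gene with reads. The 1 pathway call (Hif1a) became 0 in the first and the last of these settings and remained after centring. Counts of 0 in soma and for the difference between compartments stayed at 0 in their settings. Centring gave -0.13 for Ldha and -0.045 for the second Eno2 identifier in axons, opposite in sign to the deposited values. Scaling by reads of genes whose somatic mean reached 10 turned the somatic log2 ratio of the sides to 0.035 for Aldoa and 0.028 for Ldhb. Leaving out each library in turn kept all 12 axonal log2 ratios of the sides above 0 (Aldoc 1.59 to 2.99, Pkm 1.56 to 1.77, Aldoa 1.08 to 2.12, Eno1 0.71 to 2.13). The lowest values for Aldoc, Aldoa and Eno1 came without negative-side library 1 and the highest without negative-side library 2.

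In soma the ranges crossed 0 for Aldoa (-0.21 to 0.18), Pkm (-0.24 to 0.63), Eno1 (-0.53 to 0.87), the second Eno2 identifier (-0.67 to 0.61), Ldha (-0.036 to 0.27) and Ldhb (-0.13 to 0.045). Within the deep somatic pair alone, a comparison chosen after seeing the data, the sign turned for Aldoa (0.017), Eno2 (0.069 and 0.18), Ldha (-0.0089) and Ldhb (0.080), and within the shallow pair the Ldhb share difference became -6.31 percentage points. Side differences of isoform shares, in percentage points, ranged without a library from 8.66 to 14.4 for Aldoc in axons and -1.32 to 4.62 in soma, from -27.5 to -1.53 for Eno2 in axons and -20.3 to 8.98 in soma, and from -4.48 to 11.02 for Ldhb in axons and -6.09 to 1.43 in soma. Counting only 1 Eno2 identifier, a choice made after seeing the data, kept the direction. The causes were not tested. No paired analysis was possible because the tables hold no column per library and the recovered libraries carry no replicate number; deep and shallow libraries are not known to be replicate pairs. With 2 libraries a side, and 20 to 89 reads per negative-side library for Aldoc, Aldoa and Eno1, counting error alone is wide.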
